A study of Homo sapiens with 5 samples.

Results

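The genes of the ATF4 amino acid response, together with the cytosolic tRNA synthetases that belong to it, were followed across 5 RNA libraries of HCT116 cells. The set was defined as a list of gene symbols, and held 43 of the 57773 gene entries in the expression table. Of these, 40 averaged 1 TPM or more over the libraries (TPM is transcript abundance corrected for gene length, as a share of the library) and entered the comparisons, as did 14180 genes in all. The other 3 were VLDLR and CBS, which were listed at 0 in all 5 libraries, and ALDH1L2, which lay between 0.7 and 1.0 TPM. A value listed at 0 was not read as absence.

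HCT116 is a human colorectal carcinoma line, and the cells were a knockout of Dicer, the ribonuclease that cuts microRNA precursors into mature microRNAs. The study asked how methylation of a microRNA affects the loss of its target mRNAs. All 5 groups share the Dicer knockout, and 1 library was made for each of 5 transfections. These were methylated miR-17 (labelled miR17-13A), native miR-17 (miR17-native), methylated let-7a (let7a-19A), native let-7a (let7a-native) and a negative control. The labels give neither the dose, the time after transfection nor the kind of methyl group, and they do not say whether the knockout cells are 1 clone or what the negative control was. Cells with intact Dicer were not analysed here, so the knockout itself was not checked. Because each group is 1 library, no difference here has a replicate check, and none carries a p-value or a standard deviation. Sequencing depth is unknown, since TPM columns keep no read counts. The epithelial markers EPCAM, CDH1, KRT8, KRT18 and KRT19 were present in all 5 libraries, with summed levels of 7156.3 to 8782.7 TPM.

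ATF4 is a transcription factor of the integrated stress response. When amino acids run short or proteins misfold, kinases such as GCN2 and PERK phosphorylate the translation initiation factor eIF2, most protein synthesis slows, and the ATF4 mRNA is translated more. ATF4 then pairs with C/EBP-family proteins on C/EBP-ATF response elements and switches on genes that make amino acids, import them and load them onto tRNAs. It also switches on feedback genes such as TRIB3 and DDIT3. The ATF4 mRNA level is therefore only part of its control.

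The microRNA sequences are shown because their seeds define the targets that the transfections address. In the mature human sequences of RefSeq, given here with the annotation of GRCh38.p14, the seed (bases 2 to 8 from the 5′ end) and the base at the number in the label are in capitals. Both label numbers fall on an adenosine, base 19 of let-7a-5p and base 13 of miR-17-5p. That 13A and 19A stand for the methylated forms is a reading of the labels, which do not give the transfected oligonucleotides themselves.
hsa-miR-17-5p: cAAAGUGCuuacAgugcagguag
hsa-let-7a-5p: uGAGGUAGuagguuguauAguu
The seeds AAAGUGC of miR-17 and GAGGUAG of let-7a differ, so each microRNA pairs with its own set of sites.

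Promoter sequences are shown because the C/EBP-ATF element is the element through which ATF4 is known to act on genes of such different function. A window from 250 bases before to 50 bases after the annotated start was found in RefSeq (GRCh38.p14) for 35 of the 43 members. The motif TGATGNAA, which covers common spellings of the C/EBP-ATF element, was searched on both strands, without reference to other motifs. It was present for 15 of the 35 members (42.9%), against 1217 of all 27305 genes with a window (4.46%). A gene counted once, if any of its windows held the motif. The stricter spelling TGATGCAA was present for 10 of the 35 (28.6%), against 295 of all genes (1.08%). The motif was chosen in the knowledge that the members are described ATF4 targets, so these shares describe the set and say nothing about binding in these cells. The windows below are each printed on the strand on which the motif reads TGATGNAA, with the motif in capitals.
CHAC1, chr15:40953251-40953280, minus strand: cctggcaggagTGATGCAAcggcaggggag
ASNS, chr7:97872458-97872487, minus strand: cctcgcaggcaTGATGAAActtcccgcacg
CARS, chr11:3057407-3057436, plus strand: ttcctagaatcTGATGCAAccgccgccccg
IARS, chr9:92293692-92293721, plus strand: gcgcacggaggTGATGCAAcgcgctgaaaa
MARS, chr12:57488053-57488082, minus strand: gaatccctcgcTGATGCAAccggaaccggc
TARS, chr5:33440956-33440985, minus strand: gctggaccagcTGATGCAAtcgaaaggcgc
NARS, chr18:57621804-57621833, minus strand: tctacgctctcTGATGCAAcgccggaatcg
AARS, chr16:70289675-70289704, plus strand: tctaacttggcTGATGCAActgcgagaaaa
The 6 synthetase windows in this group share the full 8 letters TGATGCAA, and in CARS and MARS the motif spans the annotated start itself. Among the member synthetases and XPOT, 7 of the 11 genes with a window held TGATGNAA (63.6%). GARS was the one of these 7 with another base at the variable position. None of the 6 other cytosolic synthetases with a window held the motif. The bases around the motif differ from gene to gene.

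**Figure D1:**
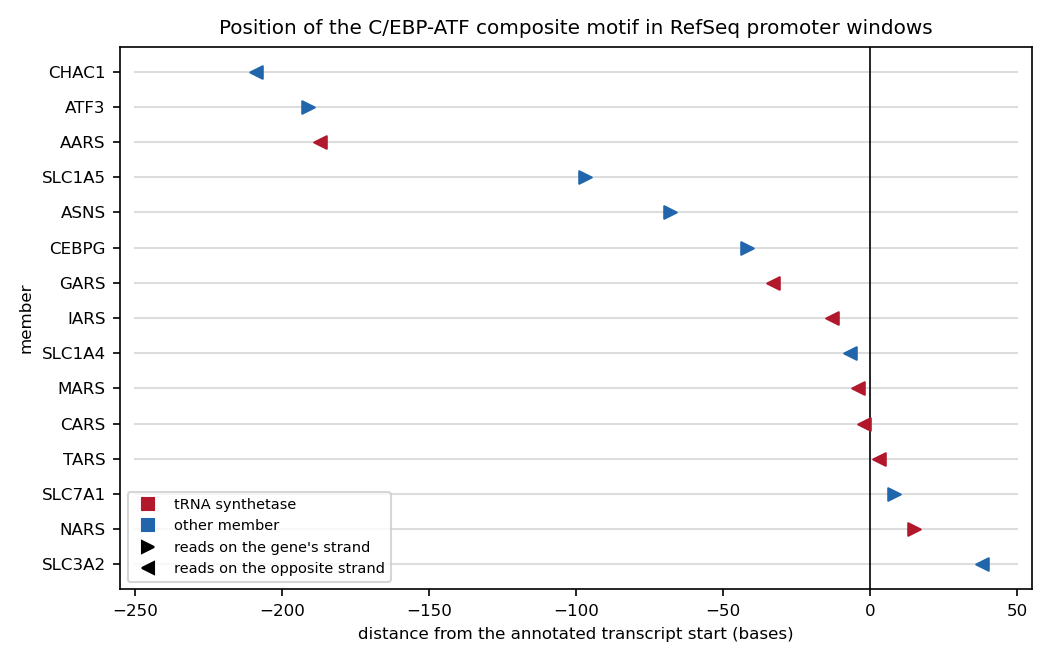
Position of the motif TGATGNAA in the 15 member promoter windows that hold it, in bases from the annotated start of transcription (horizontal axis), with 1 row per gene. Red marks are tRNA synthetases, blue marks the other members, and the direction of the arrow gives the strand. Synthetase motifs begin within 33 bases of the start, apart from AARS, whose motif begins 187 bases before it, and the farthest upstream is that of CHAC1 at 209 bases.

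The ASNS promoter is shown at greater length because its element is the textbook example of amino acid control. The 250 bases before the annotated start, chr7:97872409-97872658 of GRCh38.p14 on the minus strand, hold the motif, in capitals, at 68 to 61 bases before the start.
ASNS: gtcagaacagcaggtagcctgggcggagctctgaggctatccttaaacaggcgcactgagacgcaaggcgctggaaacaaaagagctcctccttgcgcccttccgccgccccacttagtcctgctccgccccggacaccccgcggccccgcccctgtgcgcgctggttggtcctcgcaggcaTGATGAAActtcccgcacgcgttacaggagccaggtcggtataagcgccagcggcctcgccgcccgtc

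Most of the module was higher with every transfected microRNA than with the negative control. The summed level of the members was 10651.6 TPM with methylated miR-17, 11140.1 TPM with native miR-17, 10213.1 TPM with methylated let-7a and 11562.1 TPM with native let-7a, against 9253.1 TPM in the negative control. Of the 40 members, 32 were above the control in all 4 microRNA libraries, as were 21.1% of all genes tested, and 2 (DDIT4 and STC2) were below it in all 4, as were 26.5% of all genes. The control was the lowest of the 5 libraries for 32 of the 40. It also had the highest share of mitochondrially encoded transcripts, 12.6% of its TPM, against 9.36% to 11.7% in the microRNA libraries. With TPM rescaled without mitochondrially encoded and ribosomal protein genes, 32 members were again above the control in all 4 libraries. All 4 comparisons use the same control library, so a low control cannot be told apart from 4 high microRNA libraries, and the comparisons do not support one another. In bulk RNA, fewer cells with a transcript and less of it per cell cannot be told apart either.

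By any amount, 35 of 40 members were above the control with methylated miR-17, against 42.1% of all genes tested, 37 with native miR-17, against 51.5%, 35 with methylated let-7a, against 41.0%, and 36 with native let-7a, against 49.9%. The members below the control numbered 5 with methylated miR-17, 3 with native miR-17, 5 with methylated let-7a and 4 with native let-7a, where 56.3%, 46.5%, 56.1% and 47.9% of all genes were below. DDIT4 and STC2 were among them each time.

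Differences between libraries are given as differences in log2(TPM + 1), and a gene was counted as higher or lower when TPM + 1 differed by at least 1.5-fold, which is a rule of size and not a test. With methylated miR-17, 7 of 40 members were higher by this rule, against 5.44% of all genes, and SLC38A2 alone was lower, against 10.2% of all genes. Native miR-17 had 12 members higher, against 6.67% of all genes, and none lower, against 6.08%. Methylated let-7a had 1 member higher, SLC7A11, against 3.39% of all genes, a share near the background, and none lower, against 3.04%. With native let-7a 8 members were higher, against 4.28% of all genes, and none lower, against 3.92%. At 2-fold the members above the control numbered 0 with methylated miR-17 (1.32% of all genes), 2 with native miR-17 (1.69%), 0 with methylated let-7a (1.18%) and 1 with native let-7a (1.23%), and 0 were below it with methylated miR-17 (2.40% of all genes). Centred on the median of all genes, the members at least 1.5-fold above the control numbered 11 with methylated and 10 with native miR-17, CTH and NARS no longer passing with native miR-17. The median difference of the members from the control was 0.34 with methylated miR-17, 0.43 with native miR-17, 0.19 with methylated let-7a and 0.42 with native let-7a. Over all genes tested these medians were -0.06, 0.02, -0.04 and 0.00 in the same order of libraries.

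Most members are abundant, so the background was also taken over the 6223 genes that averaged 20 TPM or more. There the share at least 1.5-fold above the control was 3.25% with methylated miR-17, 3.50% with native miR-17, 1.06% with methylated let-7a and 1.86% with native let-7a. All 4 shares are smaller than those over all genes tested. The members that averaged 20 TPM or more were 38, CTH and SLC1A4 falling short. Of these 38, the number at least 1.5-fold above the control was 7, 10, 1 and 7 in the same order.

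**Figure D2:**
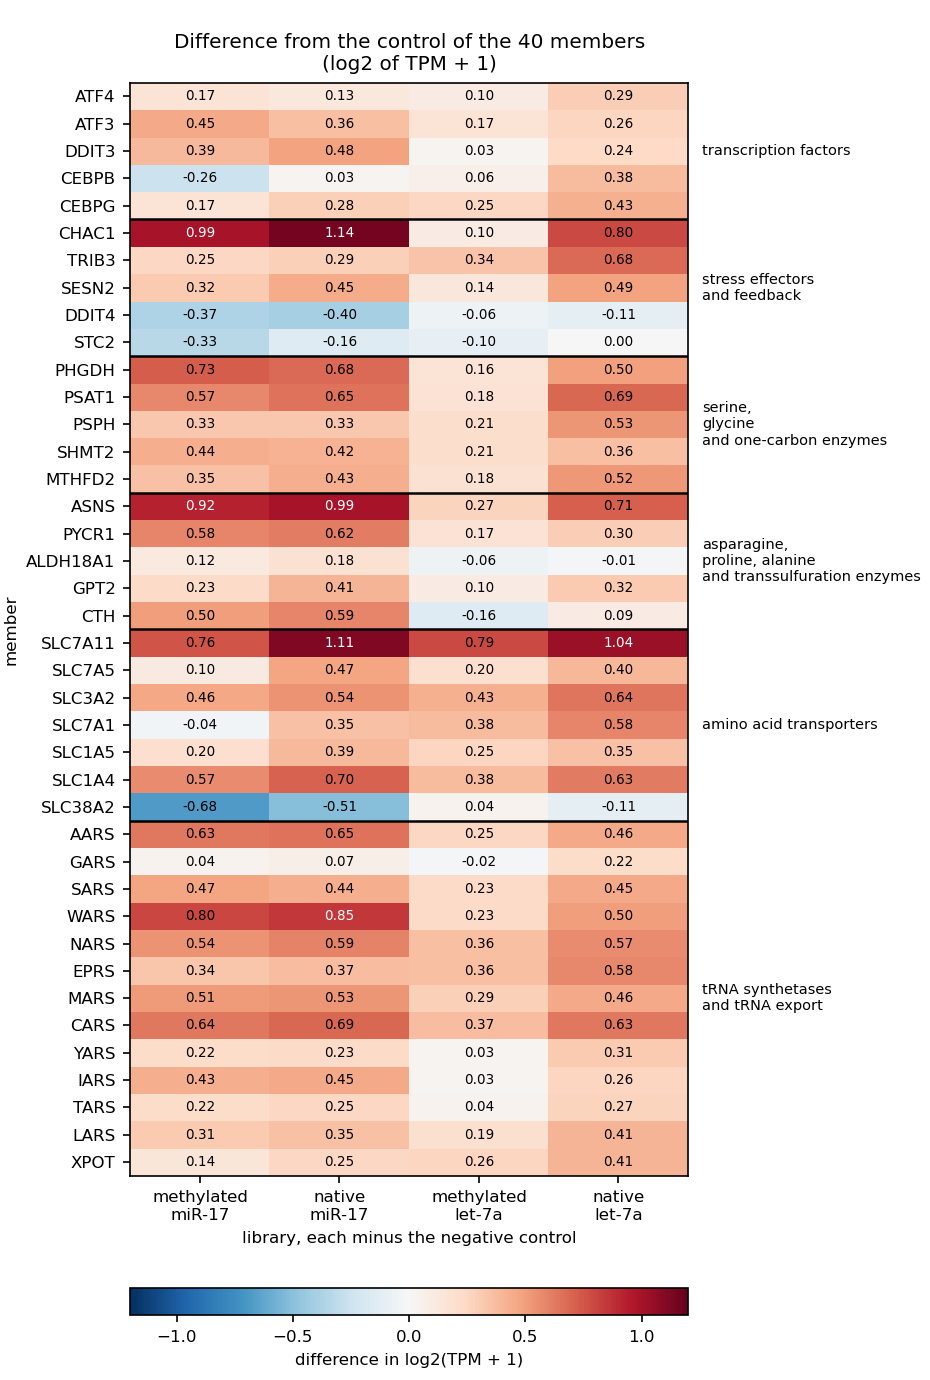
Difference from the negative control in log2(TPM + 1) for the 40 members (rows, grouped by role) in the 4 microRNA libraries (columns), 1 library per column. Red is higher and blue lower than the control. CHAC1, ASNS and SLC7A11 carry the deepest red, SLC38A2 and DDIT4 are blue in both miR-17 columns, and the methylated let-7a column is the palest.

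The transcription factors at the head of the response were mostly above the control. Their medians were 0.17 with methylated miR-17, 0.28 with native miR-17, 0.10 with methylated let-7a and 0.29 with native let-7a. ATF4 itself had 1378.0 TPM with methylated miR-17, 1340.6 with native miR-17, 1311.1 with methylated let-7a and 1502.7 with native let-7a, against 1226.3 TPM in the negative control. It was above the control in all 4, by 0.10 to 0.29 in log2(TPM + 1), and highest with native let-7a. DDIT3, which encodes the stress factor CHOP, had 177.3, 189.6, 138.5 and 160.2 TPM in the same order, against 135.3 TPM in the control. Both miR-17 libraries were thus above both let-7a libraries for DDIT3, and ATF3, a repressor induced downstream of ATF4, had the same order, 0.17 to 0.45 above the control in log2(TPM + 1). CEBPG, a binding partner of ATF4, ranged over 75.7 to 91.0 TPM, against 67.4 in the control. CEBPB, another C/EBP partner, stood apart from this group: it was lowest with methylated miR-17 at 86.0 TPM and highest with native let-7a at 133.9 TPM, against 102.9 TPM in the control. None of the 5 factors reached 1.5-fold in any comparison. Over the 6 comparisons, 1.57% to 6.67% of all genes were that much higher and 2.39% to 10.2% that much lower. A count of none among 5 genes is near that background.

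Among the stress effectors, CHAC1 had the highest difference of any member. CHAC1, which breaks down glutathione, had 119.2 TPM with methylated miR-17, 133.0 with native miR-17, 63.9 with methylated let-7a and 104.2 with native let-7a, against 59.6 TPM in the negative control. Methylated let-7a thus stood beside the control and the other microRNA libraries well above it. In TPM + 1 the ratio to the control was 1.98 with methylated miR-17, 2.21 with native miR-17, 1.07 with methylated let-7a and 1.74 with native let-7a. Only 1.07% of all genes tested had a difference at least as high with native miR-17. TRIB3, a pseudokinase that feeds back on ATF4, had 305.1, 313.4, 326.2 and 412.2 TPM in the same order, against 256.6 TPM in the control. It passed 1.5-fold with native let-7a alone, at 0.68 in log2(TPM + 1). SESN2, an inhibitor of mTORC1 signalling that senses leucine, had 40.8 TPM with methylated miR-17, 44.8 with native miR-17 and 46.1 with native let-7a, against 32.6 TPM in the control, and methylated let-7a was the nearest to the control at 0.14 in log2(TPM + 1).

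DDIT4 and STC2 ran against the rest. DDIT4, a brake on mTORC1 that is also induced by hypoxia and glucocorticoids, had 758.9 TPM with methylated miR-17, 743.3 with native miR-17, 938.0 with methylated let-7a and 909.1 with native let-7a, against 978.7 TPM in the negative control. Both miR-17 libraries were the low ones. STC2, a secreted glycoprotein, had 56.6, 64.0, 66.6 and 71.3 TPM in the same order, against 71.5 TPM in the control, so native let-7a and the control were side by side. Textbook hypoxia genes were lower than in the control too: the 12 genes listed summed to 1360.6 TPM with methylated miR-17, 1263.0 with native miR-17, 2003.1 with methylated let-7a and 1382.0 with native let-7a, against 2681.7 TPM in the control. Their part in the DDIT4 levels was not tested.

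**Figure D3:**
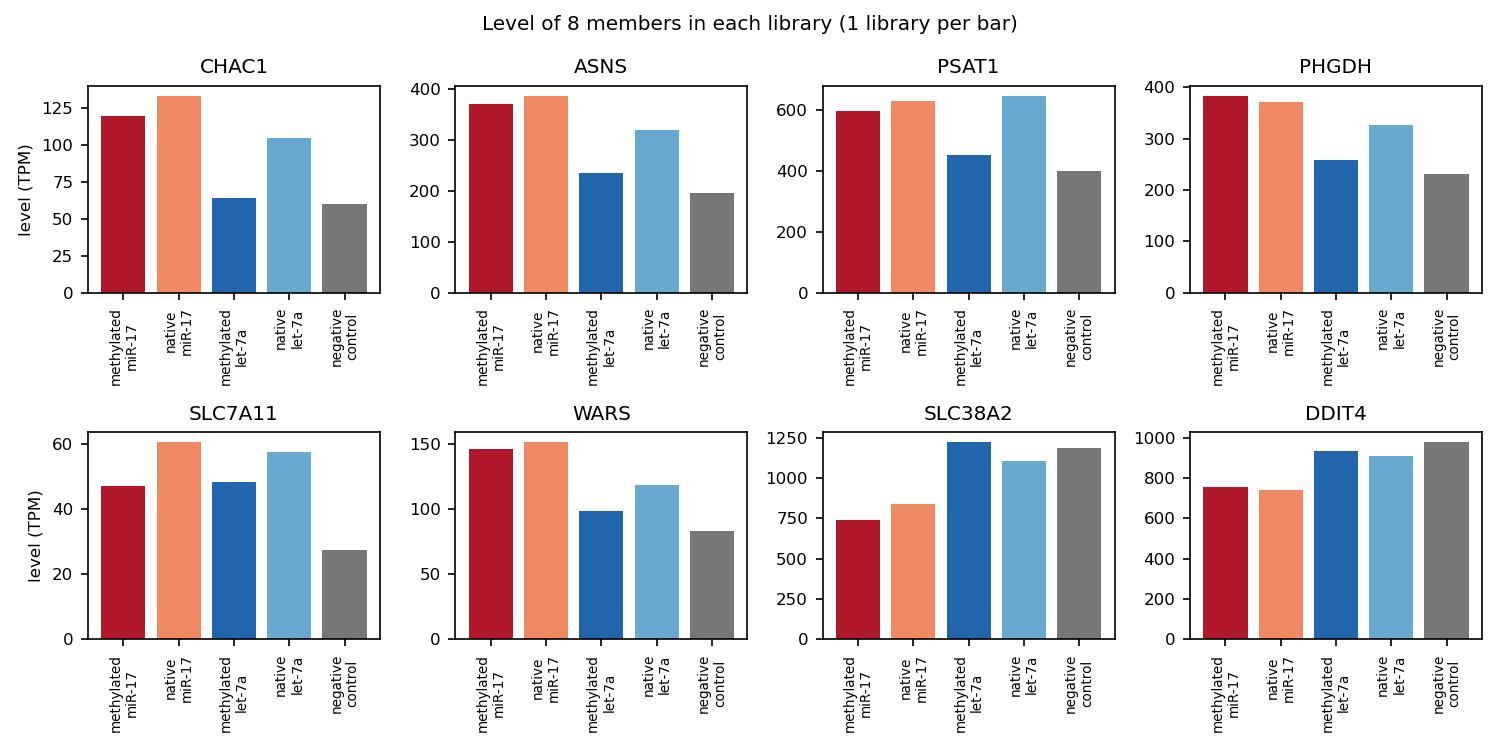
Level in TPM (vertical axis, from 0) of 8 members in the 5 libraries, 1 library per bar. CHAC1, ASNS, PSAT1, PHGDH and WARS have a short bar for methylated let-7a beside the control, SLC7A11 is above the control in every microRNA library, and SLC38A2 and DDIT4 are lowest in the miR-17 libraries.

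The serine and one-carbon enzymes were higher than the control in every microRNA library, 5 of 5 members each time. The share of all genes above the control was 42.1% with methylated miR-17, 51.5% with native miR-17, 41.0% with methylated let-7a and 49.9% with native let-7a. PHGDH, which commits glycolytic carbon to serine synthesis, had 383.5 TPM with methylated miR-17, 371.7 with native miR-17, 259.0 with methylated let-7a and 326.6 with native let-7a, against 231.4 TPM in the negative control. PSAT1, the next enzyme of that pathway, had 597.4, 631.2, 453.0 and 647.5 TPM in the same order, against 400.9 TPM in the control. For both genes methylated let-7a was the library nearest the control, and the other 3 lay at 1.41-fold or more in TPM + 1. PSPH, which completes serine synthesis, lay between 94.1 and 117.5 TPM, against 81.3 in the control. A pseudogene entry, PSPHP1, had 37.4 to 54.9 TPM, and since reads of near-identical copies can be split between them, the PSPH level is uncertain. SHMT2, the mitochondrial enzyme that turns serine into glycine, lay between 282.6 and 330.8 TPM, against 243.9 in the control. MTHFD2, the folate enzyme that follows it, lay between 333.3 and 421.2 TPM, against 293.7. The medians of the group were 0.44 with methylated miR-17, 0.43 with native miR-17, 0.18 with methylated let-7a and 0.52 with native let-7a.

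ASNS, asparagine synthetase, led the remaining biosynthetic enzymes. It had 369.9 TPM with methylated miR-17, 386.8 with native miR-17, 234.9 with methylated let-7a and 320.1 with native let-7a, against 194.9 TPM in the negative control. In TPM + 1 it was 1.89-fold the control with methylated miR-17, 1.98-fold with native miR-17 and 1.64-fold with native let-7a, and methylated let-7a again lay nearest to the control at 0.27 in log2(TPM + 1). PYCR1, the last enzyme of proline synthesis, had 548.5, 562.4, 412.9 and 449.9 TPM in the same order, against 366.1 TPM in the control, and passed 1.5-fold with native miR-17 alone. CTH, which makes cysteine from cystathionine, had 22.1, 23.5, 13.6 and 16.4 TPM, against 15.3 TPM in the control. Both miR-17 libraries were thus above the control for CTH, whereas the let-7a libraries lay on either side of it. ALDH18A1, which starts proline synthesis, lay between 86.2 and 102.0 TPM, against 89.8 in the control, and did not share the differences of PYCR1. GPT2, the mitochondrial alanine transaminase, lay between 35.3 and 44.1 TPM, against 32.9 in the control.

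Amino acid transporters held both the member that was high in every microRNA library and the one that ran lowest. SLC7A11, the cystine and glutamate exchanger, had 47.1 TPM with methylated miR-17, 60.6 with native miR-17, 48.3 with methylated let-7a and 57.5 with native let-7a, against 27.5 TPM in the negative control. It was the one member at least 1.5-fold above the control in all 4 libraries, at 0.76, 1.11, 0.79 and 1.04 in log2(TPM + 1). Taken singly, these comparisons had 5.44%, 6.67%, 3.39% and 4.28% of all genes that much higher. The share of all genes that passed in all 4 was not counted, and all 4 calls for SLC7A11 rest on the same control value. SLC3A2, the partner chain of SLC7A11, had 333.6, 351.8, 325.3 and 378.3 TPM in the same order, against 241.9 TPM in the control. It passed 1.5-fold with native let-7a alone. SLC7A5, the large neutral amino acid transporter that also pairs with SLC3A2, lay between 519.7 TPM with methylated miR-17 and 671.7 TPM with native miR-17, against 483.6 in the control. The neutral amino acid transporter SLC1A4 had 9.4, 10.4, 8.1 and 9.8 TPM, against 6.0 TPM in the control, and its relative SLC1A5, which carries glutamine, lay between 378.0 and 430.5 TPM, against 328.3. The cationic amino acid transporter SLC7A1 was split: 41.3 TPM with methylated miR-17 was close to 42.4 TPM in the control, while the other 3 libraries had 54.5 to 64.0 TPM.

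SLC38A2, a sodium-coupled importer of small neutral amino acids and a known ATF4 target, had the lowest differences in the set. It had 739.7 TPM with methylated miR-17, 835.6 with native miR-17, 1221.3 with methylated let-7a and 1104.6 with native let-7a, against 1188.5 TPM in the negative control. Both miR-17 libraries were low, at -0.68 and -0.51 in log2(TPM + 1), and both let-7a libraries lay near the control. Of all genes tested, 93.2% had a difference at least as high as SLC38A2 with methylated miR-17.

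The tRNA synthetases were higher almost as a block. Synthetases join each amino acid to its tRNA, and the 13 members here are 12 cytosolic synthetases and XPOT, the exportin that carries tRNAs out of the nucleus. All 13 were above the control with methylated miR-17, native miR-17 and native let-7a, where 42.1%, 51.5% and 49.9% of all genes were. With methylated let-7a 12 of 13 were above it, GARS being the exception, against 41.0% of all genes. The medians of the 13 were 0.43 with methylated miR-17, 0.44 with native miR-17, 0.23 with methylated let-7a and 0.45 with native let-7a. The tryptophan enzyme WARS had 146.1, 151.6, 98.4 and 118.5 TPM in that order, against 83.5 TPM in the control, and passed 1.5-fold with both miR-17 forms. WARS is also induced by interferon, and the 9 interferon-stimulated genes tested had medians of 0.45, 0.48, 0.25 and 0.32 in the same order. Their part in the WARS levels was not tested.

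A further 3 synthetases passed 1.5-fold in at least 1 comparison with the control. AARS, for alanine, had 432.1 TPM with methylated miR-17, 437.9 with native miR-17, 330.8 with methylated let-7a and 382.0 with native let-7a, against 278.1 TPM in the negative control. CARS, for cysteine, had 70.7, 73.5, 58.7 and 70.4 TPM in the same order, against 45.1 TPM in the control. NARS, for asparagine, had 183.2, 189.7, 161.2 and 187.1 TPM, against 125.6 TPM in the control. In each of the 3, methylated let-7a was the lowest of the microRNA libraries and still above the control. GARS, for glycine, was the flattest at 266.7 to 314.7 TPM, against 270.3 TPM in the control. The enzymes SARS, EPRS, MARS, YARS, IARS, TARS and LARS, which load serine, glutamate with proline, methionine, tyrosine, isoleucine, threonine and leucine, lay between 0.03 and 0.58 above the control in all 4 libraries. XPOT lay between 121.6 and 146.4 TPM, against 110.1 TPM in the control.

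By their medians, synthetases outside the set were not higher to the same extent. The 8 other cytosolic synthetase genes, DARS, HARS, KARS, RARS, VARS, QARS, FARSA and FARSB, had medians of 0.13 with methylated miR-17, 0.10 with native miR-17, -0.04 with methylated let-7a and 0.06 with native let-7a, and none reached 1.5-fold. Of these 8, the number above the control was 6, 6, 3 and 4 in that order. Of all genes, 42.1%, 51.5%, 41.0% and 49.9% were above it, and 3.39% to 6.67% by at least 1.5-fold. The 17 mitochondrial synthetases had medians of -0.03, 0.09, -0.12 and 0.00, and the 3 scaffold genes of the synthetase complex (AIMP1, AIMP2 and EEF1E1) had 0.18, 0.15, 0.13 and 0.17. Among the scaffold genes AIMP2 had 0.51, 0.46, 0.24 and 0.46, close to the medians of the member synthetases. AIMP1 and EEF1E1 did not exceed 0.18. FARSB, a subunit of the phenylalanine enzyme, had the highest differences among the other cytosolic genes, at 50.2 to 63.2 TPM, against 41.9 TPM in the control. These lists were described by their medians and their difference from the members was not tested.

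**Figure D4:**
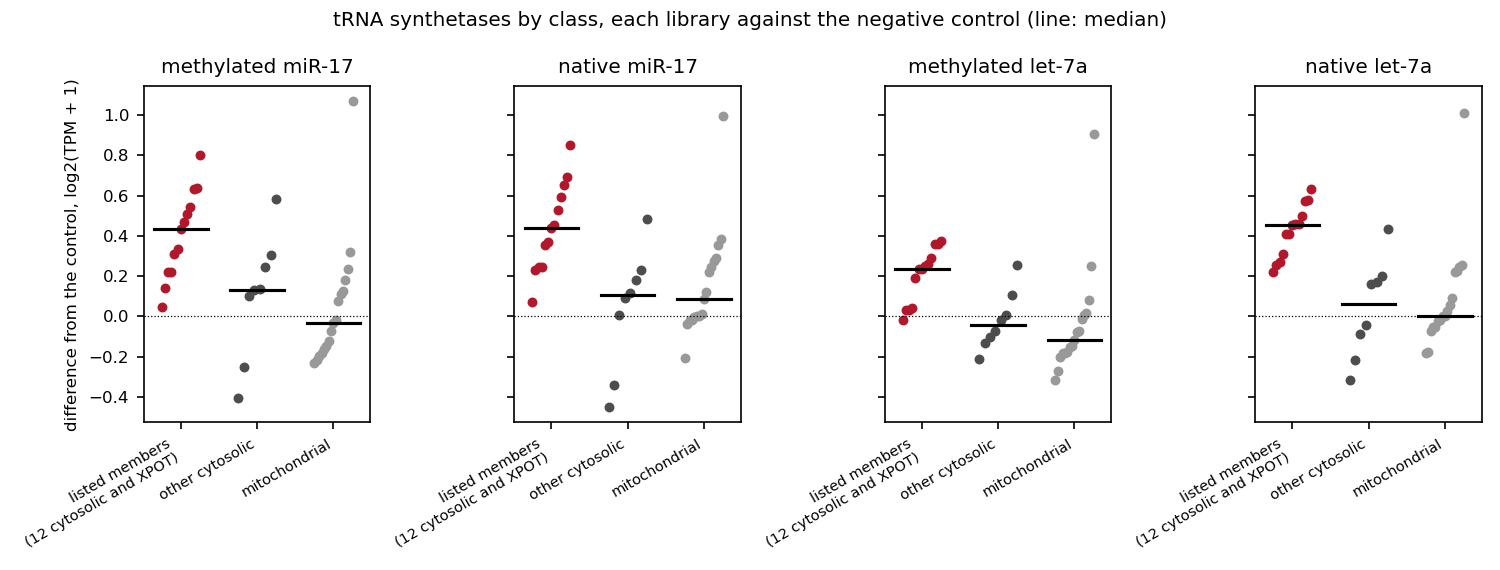
Difference from the negative control in log2(TPM + 1) of the 13 member genes (12 cytosolic synthetases and XPOT), the 8 other cytosolic synthetases and the 17 mitochondrial synthetases, in 1 panel per microRNA library. Points are genes and bars are medians. The member median is the highest of the 3 in each panel, from 0.23 to 0.45, and the grey point near 1 in each panel is NARS2.

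Methylated let-7a gave lower levels than native let-7a for nearly the whole set. Of 40 members, 38 were lower with methylated than with native let-7a by any amount, against 57.1% of all genes tested and 63.8% of the genes that averaged 20 TPM or more. The 2 exceptions were DDIT4 and SLC38A2, where 39.8% of all genes were higher. The median difference was -0.22, against -0.03 over all genes. All 13 synthetase genes and all 5 serine and one-carbon enzymes were among the lower ones, with medians of -0.22 and -0.33. CHAC1, at 63.9 TPM with methylated and 104.2 TPM with native let-7a, was the 1 member that passed 1.5-fold, against 2.39% of all genes lower by that much and 0.177% of the abundant ones. None was 1.5-fold higher, against 2.24% of all genes, and at 2-fold none was lower, against 0.980%. PSAT1 followed at -0.51 and ASNS at -0.44, and SESN2, TRIB3, MTHFD2 and PHGDH lay between -0.33 and -0.35. With both libraries centred on the median of all genes, 38 of 40 members were again lower and their median was -0.18.

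Methylated miR-17 and native miR-17 were close. By any amount, 33 of 40 members were lower with methylated than with native miR-17, against 69.0% of all genes tested, and 6 were higher, against 28.4%. The median difference was -0.06, against -0.09 over all genes. Once centred on that shift, 26 members were higher and 14 lower with a median of 0.03, so the direction depends on the scaling. None passed 1.5-fold in either direction, where 1.57% of all genes were higher and 2.73% lower. The members with the lowest values were transporters, all 7 of which were lower with methylated miR-17: SLC7A1 at -0.39, SLC7A5 at -0.37 and SLC7A11 at -0.36. For SLC7A1 this was 41.3 TPM with methylated and 54.5 TPM with native miR-17. Synthetase levels nearly coincided, with a median of -0.03.

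**Figure D5:**
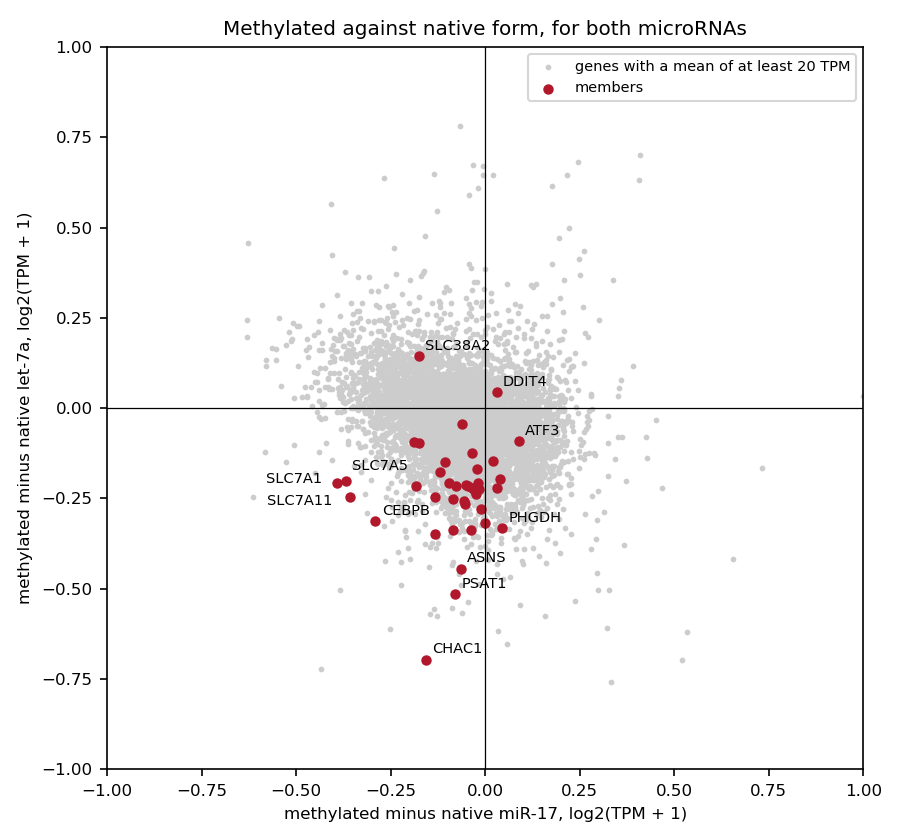
Methylated minus native difference in log2(TPM + 1) for miR-17 (horizontal) and let-7a (vertical), for the 40 members (red) and genes averaging 20 TPM or more (grey, of which 7 of 6223 fall outside the axes). Nearly all red points lie below the horizontal line at 0, down to CHAC1 at -0.70, and most sit within a narrow band around 0 on the horizontal axis, apart from SLC7A1, SLC7A5, SLC7A11 and CEBPB on the left.

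The 2 methylation comparisons share no library. Of the 40 members, 32 were lower with the methylated form of both microRNAs, 1 was higher with both (DDIT4), 5 were lower with let-7a and higher with miR-17, and SLC38A2 alone was the reverse. Among the 14180 genes tested, 5243 were lower with both, 1265 higher with both, 2672 lower with let-7a and higher with miR-17, and 4214 the reverse. The count of 32 depends on the scaling: centred on the median of all genes, 13 members were lower with both, beside 2945 of all genes, and 25 were lower with let-7a and higher with miR-17, beside 4145. For PSPH the 2 miR-17 libraries were level at 102.2 TPM. The difference between the let-7a and miR-17 contrasts was not tested, having 1 library in each group.

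The 2 microRNAs were also set side by side. Both miR-17 libraries were above both let-7a libraries for 14 members, against 27.1% of all genes tested, and below them for 7, against 29.8%. The first group held ATF3, DDIT3, CHAC1, ASNS, PYCR1, ALDH18A1, CTH, PHGDH, SHMT2, AARS, WARS, MARS, CARS and IARS. The second held CEBPB, TRIB3, DDIT4, STC2, SLC7A1, SLC38A2 and XPOT. With a gap of at least 1.2-fold between the nearer libraries, 3 members remained above (background 6.60%) and 1 below (8.88%), so most of these orders rest on small gaps. Against the mean of the let-7a libraries the members' median was 0.03 with methylated miR-17 and 0.13 with native miR-17, and against the mean of the miR-17 libraries it was -0.21 with methylated let-7a and 0.06 with native let-7a. The members were thus about as far below the miR-17 libraries with methylated let-7a as above the control, where the median was 0.19.

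Seed sites were counted because a direct target would carry one. The search covered the 3′ untranslated region (3′ UTR), using each gene's longest version in GENCODE 29. A let-7a site was present in 3 of 40 members (7.50%), against 17.9% of 12020 genes searched, and a miR-17 site in 10 of 40 (25.0%), against 31.5%. Let-7a sites were in MTHFD2, SLC1A4 and XPOT. Their levels were not below the control in either let-7a library. Sites of 8 bases, the longest kind, occurred in SLC1A4 and XPOT for let-7a, and in no member for miR-17. SLC7A11 had 5 miR-17 sites in its long 3′ UTR, one of which is shown because the gene was nonetheless above the control with both miR-17 forms. The bases that pair with the seed are in capitals, with the A that follows them in the 8-base sites.
SLC1A4, let-7a site: ctgcctcttacCTACCTCAgagggatttgg
XPOT, let-7a site: aataatggtagCTACCTCAaacctcattac
SLC7A11, miR-17 site: ttatacccagaGCACTTTgaacaaaggtc
SLC38A2 and DDIT4, the members lowest with miR-17, held none of the searched miR-17 letters in this region. Members with a miR-17 site had a median of 0.47 with methylated and 0.49 with native miR-17 (10 genes), and members without one 0.33 and 0.40 (30 genes). Over all genes searched, those with a site had medians of -0.21 and -0.09 and those without -0.02 and 0.05. The differences between these medians were not tested.

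Other described ATF4 targets outside the set were read in the same way. The 13 further targets had medians of 0.55 with methylated miR-17, 0.65 with native miR-17, 0.11 with methylated let-7a and 0.33 with native let-7a, and 6, 7, 1 and 5 of them were at least 1.5-fold above the control in that order, against 5.44%, 6.67%, 3.39% and 4.28% of all genes. ATF5 and FAM129A were at least 1.5-fold lower with methylated miR-17, against 10.2% of all genes, and ATF5 with native miR-17, against 6.08%. PCK2, a mitochondrial enzyme of gluconeogenesis, had 119.1, 124.6, 72.2 and 101.9 TPM, against 58.2 TPM in the control, an order of libraries like that of ASNS. NUPR1, a stress-induced chromatin protein, had 100.3, 85.0, 32.8 and 48.0 TPM, against 38.8 TPM in the control, and so was high with miR-17 alone. GDF15, a secreted stress cytokine that p53 also induces, had 395.8, 406.6, 625.0 and 778.5 TPM, against 357.9 TPM in the control, and so was high with let-7a. ATF5, a relative of ATF4, had 35.4, 36.8, 53.4 and 59.6 TPM, against 57.2 TPM in the control, and so was low with miR-17.

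Upstream of ATF4, 15 genes (the eIF2 kinases, eIF2 and eIF2B subunits, eIF2 phosphatase subunits and IMPACT, an inhibitor of GCN2) had medians of 0.03 with methylated miR-17, 0.02 with native miR-17, -0.01 with methylated let-7a and 0.08 with native let-7a, and none reached 1.5-fold. Their mRNA levels do not report eIF2 phosphorylation, which was not measured. Of all genes, 3.39% to 6.67% were at least 1.5-fold above the control and 3.04% to 10.2% at least 1.5-fold below it. The 12 chaperones and unfolded protein response genes of the endoplasmic reticulum had medians of -0.09, 0.14, 0.20 and 0.16 in the same order. Among them, 1, 2, 1 and 2 were at least 1.5-fold above the control, and 7, 4, 3 and 1 were below it by any amount. The genes that passed were MANF, at 0.63, 0.62, 0.45 and 0.65, and CRELD2, at 0.48, 0.65, 0.65 and 0.70. The 11 targets of NRF2, which also drives SLC7A11, had medians of -0.14, -0.09, 0.13 and 0.20. HMOX1 and GCLM were at least 1.5-fold above the control with methylated let-7a, against 3.39% of all genes. With native let-7a HMOX1 alone passed, against 4.28%. The part of NRF2 in the SLC7A11 levels was not tested. The blood and stromal markers PTPRC, CD3E, COL1A1, COL3A1 and VIM summed to 18.8 to 21.9 TPM in the microRNA libraries, against 14.5 TPM in the control, and 1 or 2 of them were at 0 in each library.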

How the data were processed

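RNA was measured in 5 libraries of total RNA, depleted of ribosomal RNA and made with a stranded kit, per the labels' protocols. As deposited, the values are TPM per gene in 1 table, which the authors rounded to 1 decimal. The genome build was hg19, per the submitters' processing notes. Aligner, counter and annotation: not given in the sources used here. TPM is a share of the library and depth is unknown, so no counting interval is given.

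From the deposited TPM, log2(TPM + 1) of the second library named was subtracted from that of the first in Python 3.11.15 (pandas 2.3.3, numpy 2.4.6) for genes averaging 1 TPM or more. The pseudocount of 1 understates differences of low genes. The calculation was tested on simulated data. With 1 library per group no test was possible, and calls are a rule of 1.5-fold in TPM + 1. The members and the 12 related lists were chosen with earlier results of these data known. Members at 1.5-fold in any of the 6 comparisons, ATF4 and members apart from their role group are given in full. Genes named from the related lists were picked after their values were seen. RefSeq (GRCh38.p14) and GENCODE 29 served for sequence alone, being of another build than the table. Alternatives were other pseudocounts (0.1 and 5), filters (none, 5 TPM), scalings, the other microRNA as comparator and a 2-fold rule. The background over genes averaging 20 TPM or more was added after the data were seen.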

Additional observations from a re-analysis of the deposited data

Results flagged for a closer look

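SLC38A2 differed in sign between the 2 methylated against native contrasts. It was higher with methylated than with native let-7a, at 1221.3 and 1104.6 TPM (0.14 in log2(TPM + 1)), and lower with methylated than with native miR-17, at 739.7 and 835.6 TPM (-0.18). It was looked at again because it was the 1 member whose 2 contrasts had opposite signs and were each at least 0.1 in log2. At any size, this direction was found in 1 of 40 members and 4214 of 14180 genes tested. The reverse was found in 5 members and 2672 genes. The rule was applied without centring, and over all genes the median was -0.09 for the miR-17 and -0.03 for the let-7a contrast. Centred on these medians, SLC38A2 kept both signs, but its miR-17 difference was smaller than 0.1 in size. Each value is the difference of 2 single libraries, and the difference between the contrasts was not tested.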

How the results depend on the processing

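Of 170 recomputed counts and medians, 150 stayed within 1.5 times (counts) or 0.1 in log2 (medians) of the value reported, 18 moved further and 2 reversed, and 118 of 120 recomputed differences of single members stayed within 0.1 in log2. The exceptions were both SLC1A4 with a pseudocount of 5. Centring on the median of all genes gave 11 members higher with methylated miR-17 than with the control, against 7 as deposited, and 10 with native miR-17, against 12, and turned the median of methylated minus native miR-17 to 0.0302. With the mean of the other microRNA's libraries in place of the control, 0 members were higher with methylated miR-17, 2 with native miR-17 and 0 with native let-7a, 4 were lower with methylated let-7a (all genes 3.17%, 4.75%, 5.28% and 4.39% in that order), and the medians were 0.0337, 0.13, 0.063 and, reversed for methylated let-7a, -0.21. The contrast with the control thus depends on that 1 library. With a 2-fold rule the members above the control were 0, 2, 0 and 1 with methylated miR-17, native miR-17, methylated let-7a and native let-7a, 0 were lower with methylated miR-17, and 0 were lower with methylated than with native let-7a. With a gap of at least 1.2-fold, 8 members were above (4.74% of all genes) and 0 below (4.13%) the control in all 4 microRNA libraries, and both miR-17 libraries were above both let-7a libraries for 3 and below them for 1. No paired analysis was possible because each group holds 1 library, and no replicate could be left out. Depth is unknown, so small differences in low genes such as SLC1A4 cannot be weighed.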

Other observations

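NARS2 is the mitochondrial tRNA synthetase for asparagine, and had 10.3 TPM in the negative control. It had 22.7 TPM with methylated miR-17, 21.5 with native miR-17, 20.2 with methylated let-7a and 21.8 with native let-7a. It was the 1 mitochondrial synthetase of 17 at least 1.5-fold above the control in all 4 libraries, and the microRNA libraries lay close together. In single comparisons 3.39% to 6.67% of all genes were that much higher, and 1 of 17 is near that background. All 4 calls for NARS2 rest on the same control value. A further 3 ATF4 targets had the order of libraries seen for CHAC1 among the microRNAs. ADM2, a peptide hormone, had 30.3 TPM with methylated miR-17, 35.2 with native miR-17, 22.9 with methylated let-7a and 29.6 with native let-7a, against 16.7 TPM in the control. JDP2, a transcription factor that dimerises with the AP-1 family, had 20.9, 23.9, 17.8 and 20.8 TPM in the same order, against 11.9 TPM in the control. The amino acid transporter SLC43A1 had 7.2, 8.2, 3.9 and 4.8 TPM, against 3.5 TPM in the control. The glycine transporter SLC6A9 had 22.1, 27.2, 24.3 and 26.8 TPM, and passed 1.5-fold over the control with both native forms, at 0.65 with native miR-17 and 0.63 with native let-7a in log2(TPM + 1). EIF4EBP1, a repressor of cap-dependent translation, had 358.8, 328.2, 204.8 and 217.3 TPM, against 189.2 TPM in the control, and so was high with miR-17. FAM129A, a stress-induced regulator of translation, had 9.9, 10.8, 16.2 and 19.9 TPM, against 15.6 TPM in the control, and so was low with miR-17.

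The hypoxia genes, given above by their sum, had medians against the control of -1.06 with methylated miR-17, -1.13 with native miR-17, -0.49 with methylated let-7a and -0.95 with native let-7a. All 12 were higher with methylated than with native let-7a, with a median of 0.56, where 39.8% of all genes were higher, and 38 of the 40 members of the ATF4 set were lower, where 57.1% of all genes were. The 8 p53 targets had medians against the control of -0.23, -0.02, 0.09 and 0.15 in the same order of libraries. CDKN1A had 190.7 TPM with methylated and 187.6 with native miR-17, against 430.8 TPM in the control. By the 1.5-fold rule CDKN1A and FAS were lower with methylated miR-17, against 10.2% of all genes, and TP53I3 was higher, against 5.44%. With native miR-17 CDKN1A alone was lower, against 6.08%.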
